A study of Mus musculus with 25 samples.

Results

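Hepatocytes of C57BL/6 mice after 4 weeks on a NASH-inducing diet were compared with hepatocytes of C57BL/6 mice on normal diet. NASH is non-alcoholic steatohepatitis, a disease of fat-laden, inflamed liver. The comparison took every library that the labels place in either group, across all genes. It therefore used 8 of the 25 libraries of the study: week 4 libraries 1 to 3 and normal-diet libraries 1 to 5. The other 17 libraries cover 1, 2, 3, 5 and 6 weeks of the NASH diet and entered the fit as groups of their own. Both groups received the same handling: livers were perfused with collagenase, cells were pelleted at low speed and sorted by flow cytometry, and RNA was taken from a fixed number of sorted cells. What the diets contained, how old and of which sex the mice were and how cells were gated could not be read from the sources used here. Nothing in the labels ties a library to a mouse of its own, and the p-values below therefore reflect only how far these libraries scatter, part of which may be technical.

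Hepatocytes make cholesterol from acetyl-CoA through the mevalonate pathway and then through squalene and lanosterol. When sterol in the endoplasmic reticulum is low, the transcription factor SREBP2 is released to the nucleus and switches on the enzymes of this route together with genes of lipoprotein uptake. When sterol is plentiful, SREBP2 stays bound by SCAP and INSIG proteins, and oxidised sterols activate the receptor LXR, which switches on exporters of sterol such as ABCG5 and ABCG8. Scar-forming stellate cells, endothelial cells of the sinusoids and the liver's own macrophages, the Kupffer cells, lie next to hepatocytes and can remain in hepatocyte preparations.

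Each library was a count of 3' ends of polyadenylated RNA per gene. Week 4 libraries held 8465986, 10015751 and 8858365 counts, and normal-diet libraries held 5281143 to 7985100, so every week 4 library was the deeper. Levels are given as CPM, each library's counts rescaled to the same total, after scaling for library composition, and a difference is a log2 fold change, week 4 over normal diet, with its standard error. A gene was called when edgeR's quasi-likelihood test gave a Benjamini-Hochberg adjusted p under 0.05 over all 11869 genes tested, and adjusted p-values below are from that test. Albumin, which marks hepatocytes, was at 61434 ± 5198 CPM at week 4 and 64130.5 ± 3237 CPM on normal diet (SD, n = 3 and n = 5), with an adjusted p of 0.815. Without scaling for composition, albumin averaged 6.24% of counts at week 4 and 5.80% on normal diet.

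The libraries of both groups also carried RNA of other liver cells. Markers of Kupffer, sinusoidal endothelial and stellate cells were higher on average at week 4. In bulk samples such as these, fewer cells of a type and less RNA per cell cannot be told apart. A marker score, the mean log2 CPM over the Kupffer, sinusoidal endothelial and stellate cell markers, was 5.03, 4.66 and 4.06 in week 4 libraries 1 to 3, against 2.56, 3.40, 3.66, 3.96 and 2.17 in normal-diet libraries 1 to 5. Week 4 library 3 had the lowest score of its group and lay just above normal-diet library 4. In week 4 library 3 the Kupffer and endothelial lists averaged 4.99 and 4.56, below normal-diet library 4 at 5.16 and 4.93. The stellate list was at 2.63 in week 4 library 3 and at 1.79 in normal-diet library 4. Normal-diet libraries 1 and 5 had the lowest scores of all 8. The share of counts from the mitochondrial genome was 21.3%, 21.7% and 27.1% at week 4, against 21.7%, 19.3%, 23.5%, 23.8% and 27.4% on normal diet, so each group held 1 library with a higher share than the rest of its group. The mean shares differed by 0.19 percentage points, with a two-sided exact permutation p of 1, where 3 against 5 libraries cannot give less than 0.0357. Without the 2 mitochondrial ribosomal RNAs the share was 2.22 percentage points higher at week 4 (exact p = 0.0714). Normal-diet library 3 stood apart from its group in another way, with low levels of several cholesterol synthesis genes and high levels of lipogenic genes, which are given below. Because of these libraries, values are also given for a fit that held the marker score as a covariate, and for a fit without normal-diet libraries 1 and 5, the lowest in that score, and week 4 library 1, the highest.

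Of the 11869 genes, 983 were called, which is 8.28% of them. Week 4 was higher for 644 genes (5.43%) and lower for 339 (2.86%). The change was at least 2-fold for 546 of the higher genes but for only 111 of the lower ones. The median log2 fold change over all genes was −0.01. The libraries of both groups did not overlap for 1608 genes, 13.5% of those tested, and 692 of the called genes were among them. With libraries scaled by their totals alone the median over all genes was 0.15, and 1033 genes were higher and 150 lower, so that 87.3% of the calls were rises in place of 65.5%. How many genes were called also rested on single libraries. Leaving out week 4 library 1 left 155 calls, leaving out week 4 library 2 left 293 and leaving out week 4 library 3 gave 1360, whereas leaving out one normal-diet library gave 421, 632, 989, 1158 and 554 calls for libraries 1 to 5. With the marker score as a term 53 genes were called, 14 higher and 39 lower, and without normal-diet libraries 1 and 5 and week 4 library 1 the test called 78, of which 29 were higher and 49 lower. Both fits called more falls than rises. Every week 4 library scored above every normal-diet library, so the fit with the score cannot fully separate the score from the diet. The calls under each choice of processing are plotted as bars.

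**Figure D1:**
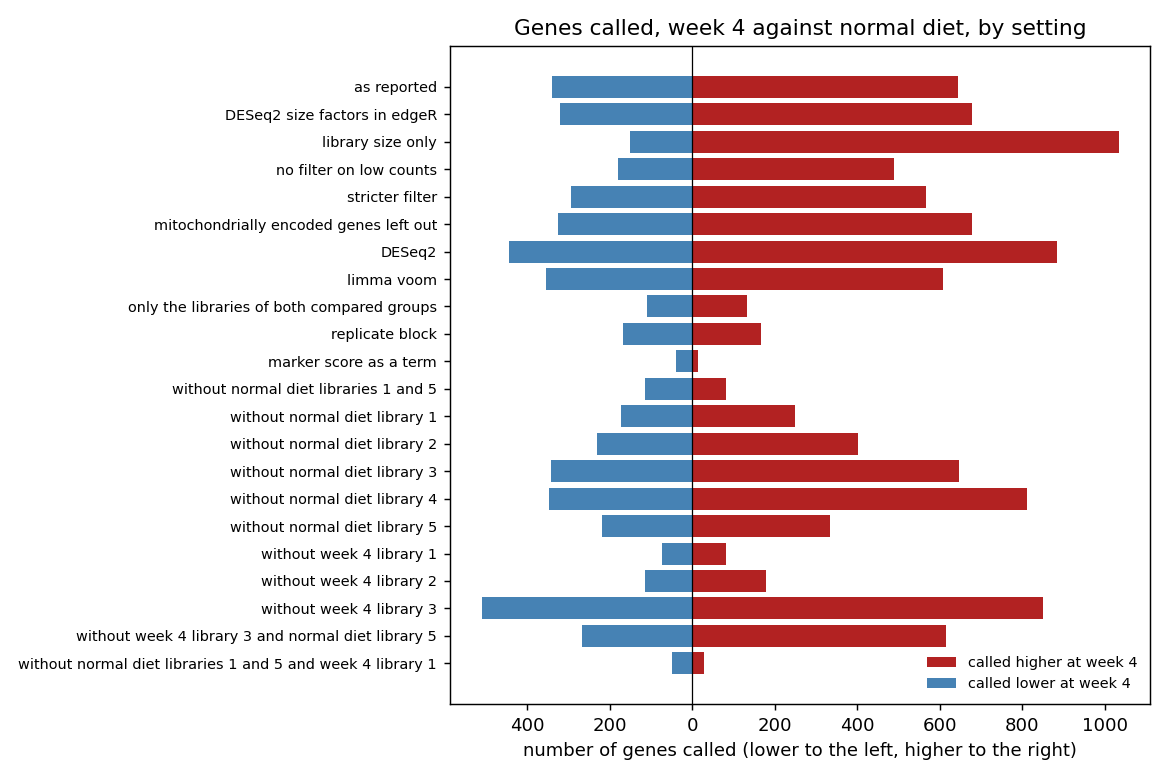
Genes called in week 4 hepatocytes against normal-diet hepatocytes (horizontal axis, number of genes) under each choice of processing (one row each), with bars for genes higher and genes lower at week 4. The fit as reported called 644 higher and 339 lower, and the fit with the marker score as a term called 14 higher and 39 lower.

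Cholesterol synthesis was lower at week 4 at nearly every step. Of its 20 enzymes, 19 fell, against 2.86% of all genes tested, and none rose, and the median log2 fold change over the 20 was −2.13. All 8 enzymes of the mevalonate arm fell, with a median of −2.31, as did 11 of the 12 enzymes from squalene synthase to cholesterol, with a median of −1.95. The libraries of both groups did not overlap for 18 of the 20, against 13.5% of all genes tested.

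The step that separated the groups most was squalene epoxidation. Sqle, squalene epoxidase and a rate-limiting enzyme of the sterol branch, was at 4.69, 4.34 and 5.36 CPM in week 4 libraries 1 to 3, against 57.7, 63.4, 54.9, 70.3 and 70.0 CPM in normal-diet libraries 1 to 5. Every week 4 library lay more than 10-fold under every normal-diet library. The log2 fold change was −3.72 ± 0.25, which is 13.2-fold lower, and its adjusted p of 5.03e-10 was the smallest of all 11869 genes. Hmgcs1, which makes HMG-CoA early in the mevalonate arm, was at 78.1, 94.6 and 122 CPM at week 4, against 632, 466, 197, 511 and 751 CPM on normal diet, a change of −2.38 ± 0.35 (adjusted p = 0.000367) with no overlap.

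The later mevalonate enzymes followed. Mvd, mevalonate diphosphate decarboxylase, was at 2.94, 3.25 and 1.91 CPM at week 4, against 23.8, 25.7, 14.2, 21.3 and 20.0 CPM on normal diet, and fell 7.67-fold (adjusted p = 6.56e-06). The kinases on either side of phosphomevalonate fell as well, Mvk by 1.63 ± 0.33 and Pmvk by 2.24 ± 0.29 on the log2 scale. Fdps, which makes farnesyl diphosphate, fell 6.30-fold to 24.4 ± 5.92 CPM at week 4, against 154 ± 46.7 CPM on normal diet (SD). Idi1, isopentenyl diphosphate isomerase, was at 0.327, 0.197 and 0.476 CPM at week 4, against 7.80, 3.97, 0.312, 4.31 and 6.80 CPM on normal diet. Its log2 fold change of −3.74 ± 0.72 was called (adjusted p = 0.00294), but the groups overlapped, because normal-diet library 3 was as low as the week 4 libraries, and 15 of the 19 other fits that gave it a value called it. Acat2, which condenses acetyl-CoA at the entry to the pathway, fell 1.98-fold.

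From squalene synthase to cholesterol the falls were graded. Fdft1, squalene synthase, was at 10.7, 6.90 and 9.53 CPM at week 4, against 42.7, 45.7, 16.8, 38.7 and 47.4 CPM on normal diet, and Lss, which closes the sterol rings, averaged 6.20 ± 0.618 CPM at week 4 and 28.4 ± 10.1 CPM on normal diet. The lanosterol demethylase Cyp51 fell 6.72-fold, with 23.2, 26.4 and 29.5 CPM at week 4, against 222, 171, 89.8, 182 and 223 CPM on normal diet. Msmo1 and Nsdhl, which strip the C4 methyl groups, fell 6.27-fold and 5.87-fold. For Msmo1 the week 4 libraries held 21.9, 36.7 and 30.0 CPM and the normal-diet libraries 221, 205, 73.0, 199 and 229.9 CPM. Other enzymes of this arm changed less: Dhcr7, the 7-dehydrocholesterol reductase, by −1.83 ± 0.22, Tm7sf2, a sterol C14 reductase, by −1.40 ± 0.23, Hsd17b7, a sterol ketoreductase, by −1.39 ± 0.18, Sc5d, a sterol desaturase, by −1.06 ± 0.21 and Ebp, a sterol isomerase, by −0.54 ± 0.13 on the log2 scale. In normal-diet library 3 every one of Hmgcs1, Idi1, Fdft1, Cyp51 and Msmo1 was at its lowest of that group.

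The number of these falls that were called varied with the fit. With the marker score as a term, the median of the 20 genes was −1.70 and 12 were called lower. Without normal-diet libraries 1 and 5 and week 4 library 1, it was −1.79 and 15 were called lower. Leaving out one library at a time gave 17 to 20 lower. The libraries' mean log2 CPM over the 20 genes was 4.00, 4.18 and 4.24 at week 4, against 6.33, 6.09, 5.32, 6.08 and 6.43 on normal diet, with no overlap between the groups.

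**Figure D2:**
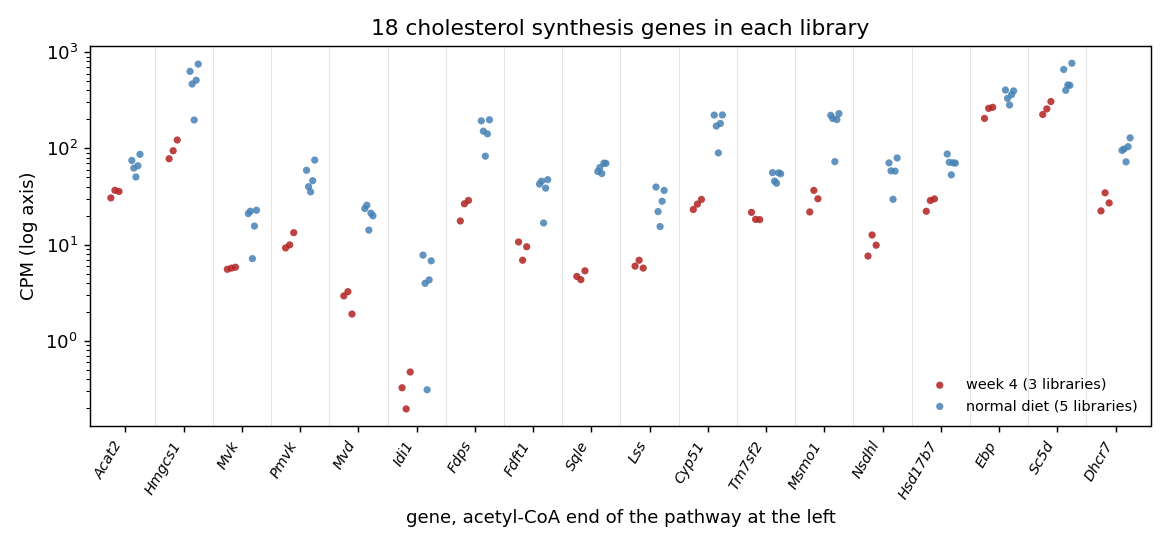
Levels of 18 cholesterol synthesis genes in each library (CPM, log scale) in the order of the pathway, with points for week 4 libraries and normal-diet libraries. Sqle lies at 4.34 to 5.36 CPM at week 4 and at 54.9 to 70.3 CPM on normal diet, whereas the groups overlap, through normal-diet library 3, for Idi1.

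SREBP2 is known to act at sterol regulatory elements beside the CCAAT-binding factor NF-Y, so the promoters of the enzymes with the largest falls were searched for TCACNCCAC and for CCAAT, both strands each. The RefSeq promoter table (GRCm38.p6, a build other than that of the counts) holds 15 of the 20 enzymes, and Sqle is not among those 15. The 250 bases before the start site of the 4 enzymes with the largest falls that the table holds, and of Hmgcs1, which was chosen after its match was seen, follow 5′ to 3′ on the gene's strand. Capitals mark CCAAT or its complement ATTGG, and in Hmgcs1 also the match to TCACNCCAC.
Idi1 (chr13:8885356-8885605, plus strand): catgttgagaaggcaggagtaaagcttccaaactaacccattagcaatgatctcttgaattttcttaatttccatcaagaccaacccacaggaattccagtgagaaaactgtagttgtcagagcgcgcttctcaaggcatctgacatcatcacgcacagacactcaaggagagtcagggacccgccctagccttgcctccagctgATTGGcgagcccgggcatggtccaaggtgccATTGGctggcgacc
Mvd (chr8:122443423-122443672, minus strand): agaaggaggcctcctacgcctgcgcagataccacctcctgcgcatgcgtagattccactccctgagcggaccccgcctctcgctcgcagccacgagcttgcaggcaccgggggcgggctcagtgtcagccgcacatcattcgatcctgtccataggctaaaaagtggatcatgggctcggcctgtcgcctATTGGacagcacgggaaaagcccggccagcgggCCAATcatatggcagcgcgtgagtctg
Cyp51 (chr5:4104698-4104947, minus strand): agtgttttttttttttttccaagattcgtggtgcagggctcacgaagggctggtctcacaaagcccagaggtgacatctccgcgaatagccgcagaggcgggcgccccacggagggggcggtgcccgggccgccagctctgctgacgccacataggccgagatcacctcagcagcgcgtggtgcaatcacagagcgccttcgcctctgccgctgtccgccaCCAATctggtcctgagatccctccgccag
Msmo1 (chr8:64733579-64733828, minus strand): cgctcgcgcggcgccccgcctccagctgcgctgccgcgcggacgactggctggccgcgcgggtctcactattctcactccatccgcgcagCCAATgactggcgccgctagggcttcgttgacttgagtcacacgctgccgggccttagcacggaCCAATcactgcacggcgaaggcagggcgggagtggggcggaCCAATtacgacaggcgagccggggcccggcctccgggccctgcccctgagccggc
Hmgcs1 (chr13:119690101-119690350, plus strand): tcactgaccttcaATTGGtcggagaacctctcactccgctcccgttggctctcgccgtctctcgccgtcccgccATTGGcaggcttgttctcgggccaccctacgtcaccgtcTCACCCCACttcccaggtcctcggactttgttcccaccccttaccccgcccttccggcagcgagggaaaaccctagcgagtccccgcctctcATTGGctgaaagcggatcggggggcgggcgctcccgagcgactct
CCAAT on either strand occurred in 13 of the 15 promoters (86.7%), against 9314 of all 27025 promoters of this length (34.5%). It lay 45 and 14 bases before the start site in Idi1, 60 and 27 bases before it in Mvd, 29 bases before it in Cyp51, and 160, 96 and 55 bases before it in Msmo1. TCACNCCAC occurred in 1 of the 15, in Hmgcs1 at 137 bases before the start site, against 280 of the 27025 promoters (1.04%). A match describes these letters and says nothing about binding in these samples. Only this spelling of the sterol element was searched, so the lack of a match does not show that a promoter lacks such an element.

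Among 8 genes of sterol sensing and LDL uptake, 5 fell and 1 rose, where 2.86% of all genes tested fell and 5.43% rose. Their median log2 fold change was −0.63. Insig1, which holds SREBP proteins in the endoplasmic reticulum, was at 41.3, 72.4 and 69.0 CPM at week 4, against 94.2, 152, 138, 135 and 178 CPM on normal diet (−1.19 ± 0.29, adjusted p = 0.0169). Its groups did not overlap. Stard4, a cytosolic sterol carrier, fell 1.74-fold, and Srebf2, which encodes SREBP2 itself, fell 1.90-fold with an overlap between the groups. Scap, the escort of SREBP2, fell 1.34-fold. Mylip, a ubiquitin ligase of lipoprotein uptake and a target of LXR, was the gene that rose, to 19.1 ± 7.68 CPM at week 4, against 5.74 ± 3.45 CPM on normal diet (SD; 1.68 ± 0.43, adjusted p = 0.0226). Mylip did not overlap between groups, but week 4 library 3 lay just over normal-diet library 4, and its log2 fold change with the marker score as a term was 0.37. Without week 4 library 1 the list had 1 gene called, which was lower, and with the marker score as a term likewise 1.

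Of 9 genes of LXR and sterol efflux, 4 rose, against 5.43% of all genes tested, and none fell, and the median was 1.35. Abcg5 and Abcg8 together encode the transporter that secretes sterols into bile. Abcg8 was at 89.1, 114 and 132 CPM at week 4, against 30.5, 24.3, 64.7, 24.9 and 46.1 CPM on normal diet, and Abcg5 at 108, 138 and 142 CPM at week 4, against 22.0, 18.8, 86.4, 22.2 and 31.8 CPM on normal diet. Neither gene overlapped between groups, and normal-diet library 3 was the nearest to the week 4 libraries for both. The changes were 1.55 ± 0.26 for Abcg8 (adjusted p = 0.0015) and 1.83 ± 0.36 for Abcg5 (adjusted p = 0.00576). Tmem86a, a lysoplasmalogenase of the endoplasmic reticulum, was at 37.4, 30.8 and 27.6 CPM at week 4, against 4.72, 9.32, 10.8, 9.70 and 3.51 CPM on normal diet (2.04 ± 0.31, adjusted p = 0.000517). Abcg1, a sterol exporter of macrophages and other cells, rose 4.24-fold, with 0.69 on the log2 scale when the marker score was a term. Abca1, which loads cholesterol onto apolipoprotein A-I, was at 93.1 ± 6.07 CPM at week 4 and 80.2 ± 12.9 CPM on normal diet and was not called. With the marker score as a term the median of the list was 0.69 and Abcg8 alone was called.

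Fatty acid synthesis had 2 genes lower and none higher among 13 (median −0.50), where 2.86% of all genes tested were lower and 5.43% higher. Both genes that fell supply or commit acetyl-CoA. Acss2, cytosolic acetyl-CoA synthetase, was at 34.7, 59.9 and 48.8 CPM at week 4, against 184, 159.7, 142, 151 and 276 CPM on normal diet, a 3.81-fold fall (adjusted p = 0.000495). Acacb, the acetyl-CoA carboxylase at the mitochondrial surface, fell 3.07-fold to 19.9 ± 8.11 CPM at week 4, against 61.1 ± 11.3 CPM on normal diet. Normal-diet library 3 set the spread of the remaining members. Fasn, fatty acid synthase, was at 358, 370.4 and 301 CPM at week 4, against 266, 321, 1334, 247 and 345 CPM on normal diet, and Scd1, stearoyl-CoA desaturase, was at 5447, 7744 and 7382 CPM at week 4, against 4611, 3644, 13272, 5329 and 3473 CPM on normal diet. Srebf1, the master regulator of lipogenesis and an LXR target, was at 269.7, 257 and 241 CPM at week 4, against 34.3, 62.8, 267, 45.7 and 92.8 CPM on normal diet. For Srebf1 each week 4 library exceeded 4 of the 5 normal-diet libraries and overlapped with the remaining one, and the change of 1.35 ± 0.61 was not called (adjusted p = 0.188). Of 8 genes of polyunsaturated fatty acid synthesis (median −0.23), Acsl4, an acyl-CoA synthetase with a preference for arachidonic acid, fell by 0.59 ± 0.13 on the log2 scale, and none rose.

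Lipid uptake and handling held 4 genes that rose and 2 that fell among 28 (median 0.03), against 5.43% and 2.86% of all genes tested. Cd36, a fatty acid and oxidised-lipid receptor, was at 44.9, 65.1 and 47.3 CPM at week 4, against 10.5, 8.98, 12.9, 17.3 and 14.3 CPM on normal diet. The lowest week 4 library was more than 2-fold above the highest normal-diet library, and the change was 2.03 ± 0.22 (adjusted p = 5.7e-06). Fabp2, the intestinal-type fatty acid binding protein, was at 129, 165 and 149.8 CPM at week 4, against 75.1, 56.1, 73.9, 48.4 and 39.5 CPM on normal diet, a 2.52-fold rise. Mgll, which hydrolyses monoacylglycerol, rose 1.78-fold. Fabp4, a fatty acid binding protein of adipocytes, macrophages and endothelium, rose 3.52-fold with an overlap, and with the marker score as a term its log2 fold change was 0.27. Abhd5, the coactivator of triglyceride lipase, was at 10.8, 11.5 and 9.53 CPM at week 4, against 18.7, 23.1, 18.2, 20.2 and 14.7 CPM on normal diet (−0.84 ± 0.17, adjusted p = 0.00383). Gpam, which starts glycerolipid synthesis, fell 2.29-fold with an overlap, and 7 of the 21 other fits called it. The lipid droplet coat gene Plin2 was at 388, 392 and 473 CPM at week 4, against 588, 351, 463, 574 and 296 CPM on normal diet, with the groups fully interleaved.

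Fabp5, a fatty acid binding protein better known from skin, had one of the largest falls among genes of at least 10 CPM. It was at 8.72, 11.2 and 6.91 CPM at week 4, against 153, 54.0, 105, 88.5 and 45.4 CPM on normal diet. The normal-diet libraries ranged more than 3-fold among themselves, yet the lowest was far over the highest week 4 library, and the change was −3.31 ± 0.41 (adjusted p = 5.93e-05). Mfsd2a, a carrier of lysophosphatidylcholine, was at 125, 144 and 149 CPM at week 4, against 17.8, 26.6, 114, 10.5 and 30.3 CPM on normal diet, and rose by 1.80 ± 0.53 (adjusted p = 0.0438), although 8 of the 21 other fits called it.

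Fatty acid oxidation and ketogenesis had 1 gene called among 24 (median 0.22), where 8.28% of all genes tested were called. Vnn1, a pantetheinase and a target of PPARα, was at 14.5, 19.8 and 17.7 CPM at week 4, against 11.4, 9.49, 2.81, 7.01 and 5.48 CPM on normal diet (1.26 ± 0.26, adjusted p = 0.00573). Cyp4a14, a fatty acid omega-hydroxylase whose reads may be shared with its close relatives, was at 90.7, 313 and 121 CPM at week 4, against 3.90 to 84.9 CPM on normal diet. Those groups did not overlap, but the spread was wide in both and the adjusted p was 0.0632.

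Among 16 apolipoprotein and lipoprotein assembly genes, 2 rose and 1 fell (median −0.08), against 5.43% and 2.86% of all genes tested. Apoa4, an apolipoprotein of triglyceride-rich particles, was at 180.1, 106 and 169 CPM at week 4, against 9.44, 18.0, 39.1, 7.41 and 14.5 CPM on normal diet. It rose 8.55-fold with no overlap (3.10 ± 0.41, adjusted p = 0.000181). Apoc2, the cofactor of lipoprotein lipase, was at 707, 759.8 and 731 CPM at week 4, against 369, 383, 534, 349.9 and 366 CPM on normal diet, a 1.83-fold rise. Apom, the carrier of sphingosine-1-phosphate in HDL, was at 239.8, 214 and 204 CPM at week 4, against 398, 462, 421, 408 and 397 CPM on normal diet (−0.93 ± 0.12, adjusted p = 2.77e-05). Spread was small in both groups for Apom, and the highest week 4 library was well under the lowest normal-diet library.

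Bile acid synthesis and transport fell in 4 of 20 genes, against 2.86% of all genes tested, and rose in none (median −0.25). Cyp7b1, the oxysterol hydroxylase of the alternative route, was at 132, 79.0 and 92.6 CPM at week 4, against 295, 416, 267, 235 and 142 CPM on normal diet (−1.42 ± 0.31, adjusted p = 0.0105). The sterol 27-hydroxylase Cyp27a1, which starts that route, fell 1.64-fold with an overlap at normal-diet library 3. Cyp2c70, which makes muricholic acids in mice, fell 1.68-fold, and so did Abcb11, the bile salt export pump, with 177, 178 and 275 CPM at week 4, against 359.6, 289, 317, 329 and 469 CPM on normal diet. Cyp7a1, the rate-limiting enzyme of the classic route, was at 126, 66.8 and 68.6 CPM at week 4, against 68.4, 69.7, 34.8, 33.4 and 29.6 CPM on normal diet, with an overlap and an adjusted p of 0.233. Without week 4 library 2 none of the 20 was called, and without week 4 library 1 only 1 was.

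Xenobiotic metabolism had 2 genes lower and none higher among 26 (median −0.20), where 2.86% of all genes tested were lower and 5.43% higher. Cyp3a11, the main drug-oxidising P450 of mouse liver, was at 336, 339.6 and 388 CPM at week 4, against 2222, 3163, 1421, 2698 and 2214 CPM on normal diet, a 6.61-fold fall (−2.73 ± 0.45, adjusted p = 0.0015). Even the lowest normal-diet library held more than 3 times the CPM of any week 4 library, though reads of its close paralogs may be counted in part under this symbol. Ces2a, a carboxylesterase, was at 99.1, 94.1 and 101 CPM at week 4, against 298, 351, 225, 304 and 221 CPM on normal diet (−1.52 ± 0.19, adjusted p = 1.45e-05). Cyp2c40, an arachidonic acid P450 in another large family, averaged 3.94 ± 0.525 CPM at week 4 and 40.1 ± 38.5 CPM on normal diet, where library 1 alone held 104 CPM and library 3 held 5.77. It was called (adjusted p = 0.0219), and 11 of the 21 other fits called it.

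Glutathione and oxidative stress genes fell in 3 of 22 cases, against 2.86% of all genes tested, and rose in none (median −0.25). All 3 were glutathione transferases. Gstm3 was at 9.15, 12.1 and 9.17 CPM at week 4, against 44.7, 50.4, 19.8, 32.1 and 45.8 CPM on normal diet, a 3.77-fold fall. Gstm1 fell 2.07-fold to 645 ± 22.1 CPM at week 4, against 1336 ± 302 CPM on normal diet, and Gsta4, which conjugates products of lipid peroxidation, fell 1.87-fold. Members of the Gstm family are close copies and their reads could be divided between them. Csad, the decarboxylase that makes taurine from cysteine, was at 71.9, 68.1 and 71.6 CPM at week 4, against 372, 543, 231, 328 and 339.6 CPM on normal diet. The week 4 libraries were nearly equal, each more than 3-fold under every normal-diet library, and the change was −2.36 ± 0.32 (adjusted p = 0.000175). Aldoc, aldolase C, fell 5.09-fold to 3.32 ± 1.05 CPM at week 4, against 17.1 ± 3.37 CPM on normal diet.

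**Figure D3:**
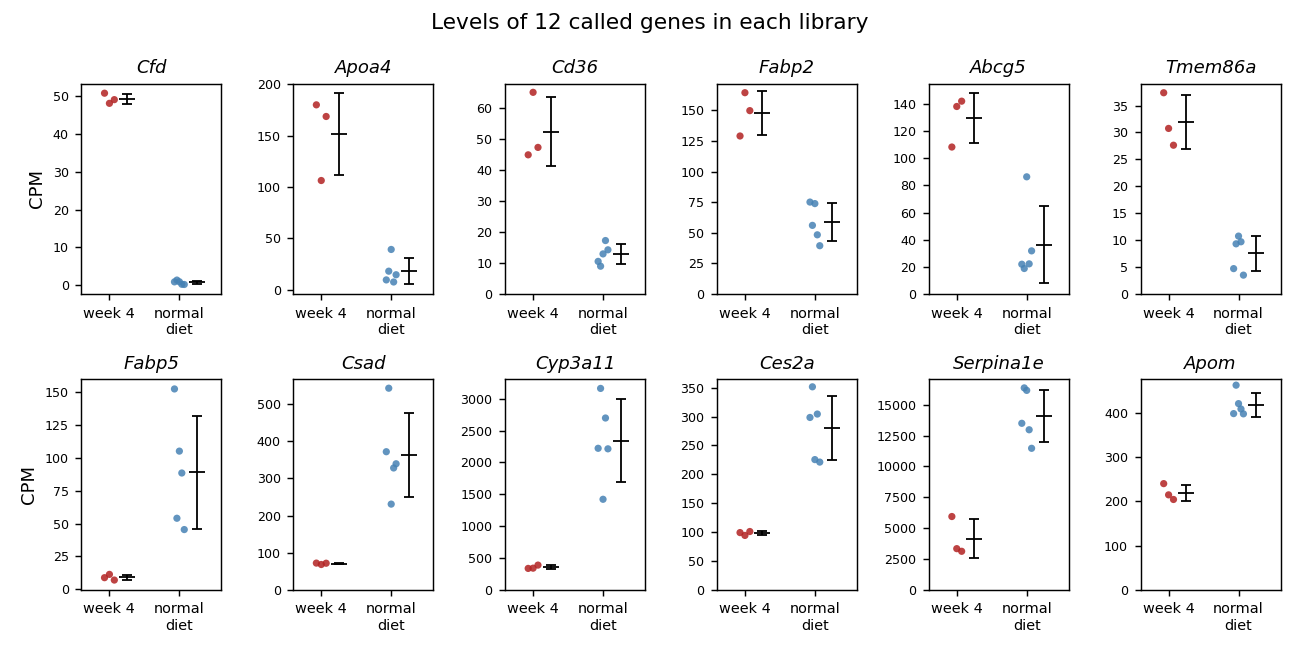
Levels in each library (CPM, an axis for each gene) of 12 genes of lipid handling, xenobiotic metabolism and secretion, with week 4 libraries left of normal-diet libraries and the mean ± SD of each group beside its points. None of the 12 overlaps between groups: Cfd lies at 48.1 to 50.8 CPM at week 4 and at 0.219 to 1.38 CPM on normal diet, and Csad at 68.1 to 71.9 CPM at week 4 and at 231 to 543 CPM on normal diet.

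Growth hormone signalling gives male and female mouse liver different sets of secreted proteins and P450 enzymes. Of 20 growth hormone axis and male-biased genes, 5 fell, against 2.86% of all genes tested, and none rose (median −0.36). Serpina1e, a protease inhibitor related to antitrypsin, was at 5942, 3336 and 3122 CPM at week 4, against 13503, 16375, 16174, 12979.5 and 11476 CPM on normal diet. The fall of −1.77 ± 0.26 (adjusted p = 0.000181) left no overlap between groups, and its near-identical family members make the division of reads uncertain. Cyp4a12a, a male-biased omega-hydroxylase, fell 2.02-fold, Elovl3, a fatty acid elongase, fell 2.35-fold, and Keg1 fell 1.80-fold. Cyp7b1, given above, is the fifth of these genes. Mup15, a major urinary protein in a family of close copies, was at 70.7, 22.2 and 93.4 CPM at week 4, against 557, 438, 306, 219 and 204 CPM on normal diet (−2.47 ± 0.72, adjusted p = 0.0416). Of 9 steroid hydroxylases and aldo-keto reductases (median −0.16), Hsd17b2, which oxidises oestradiol and testosterone, fell 1.45-fold and none rose.

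Among genes averaging 10 CPM or more, the largest rise was that of Cfd, adipsin or complement factor D, a protease best known from fat tissue. Cfd was at 50.8, 48.1 and 49.1 CPM at week 4, against 0.907, 1.38, 0.935, 0.270 and 0.219 CPM on normal diet. The 3 week 4 libraries were nearly equal, and all 5 normal-diet libraries lay under 2 CPM. The log2 fold change was 6.02 ± 0.79 (adjusted p = 0.000173), 65.0-fold, and it was 6.48 with the marker score as a term. Of 25 complement and coagulation genes Cfd alone rose and 7 fell (median −0.36), where 5.43% of all genes tested rose and 2.86% fell. C8b, a part of the membrane attack complex, was at 345, 319.8 and 467 CPM at week 4, against 1126, 713, 855, 692 and 695 CPM on normal diet, a 2.16-fold fall. C2, C1ra and the central component C3 fell 1.64-fold, 1.44-fold and 1.51-fold, and the clotting factor F10, antithrombin (Serpinc1) and plasminogen (Plg) fell by less, 1.39-fold, 1.28-fold and 1.28-fold. Without week 4 library 1 none of the 7 falls was called. Of 23 acute phase proteins (median −0.31), Apcs, serum amyloid P, fell 2.14-fold, fibrinogen beta (Fgb) fell 1.74-fold, and none rose. Without week 4 library 1 neither was called.

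Lists of other hepatocyte functions held 0 to 3 calls each, where 8.28% of all genes tested were called. The 14 hepatocyte markers had a median of −0.33. Transthyretin (Ttr), Serpina1a and Fgb among them fell, Ttr to 8375, 9440.0 and 9069 CPM at week 4, against 12085, 12707, 11773, 11481 and 13882 CPM on normal diet. Of 17 pericentral genes (median 0.19) Cyp27a1 fell, and of 20 periportal genes (median −0.24) E-cadherin (Cdh1) fell 1.81-fold, to 105, 109 and 119 CPM at week 4, against 201, 173, 214, 215 and 202 CPM on normal diet. Choline dehydrogenase (Chdh) and the folate enzyme Aldh1l1 fell 1.70-fold and 1.53-fold among 18 genes of methionine and one-carbon metabolism (median −0.28). The nuclear receptor gene Rora fell 1.46-fold among 19 hepatocyte transcription factors (median −0.02). The clock genes Arntl and Cry1 fell 2.22-fold and 2.16-fold among 15 (median 0.09). Of the 21 other fits, 6 called Arntl and 7 called Cry1, and Cry1 overlapped between the groups. Of 22 cytosolic ribosomal protein genes 2 fell (median −0.21), among them Rpl7, which fell 1.28-fold. No gene was called among 23 genes of the urea cycle and amino acid catabolism (median −0.18), 19 of glucose and fructose metabolism (0.05), 20 of endoplasmic reticulum stress (−0.33), 13 of the integrated stress response (−0.11), 25 of oxidative phosphorylation (−0.12), 10 mitochondrially encoded transcripts (0.10) and 19 of the cell cycle (0.26).

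**Figure D4:**
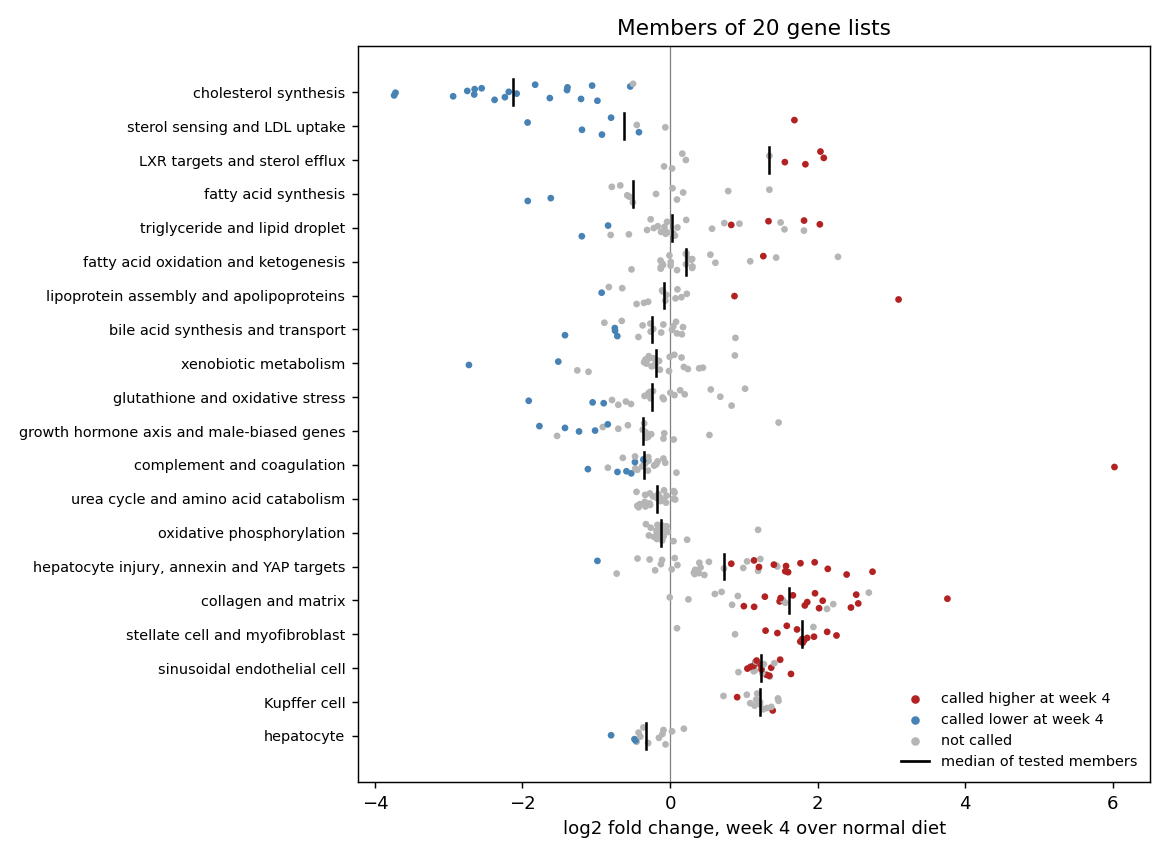
Log2 fold change, week 4 over normal diet, of each tested member of 20 gene lists (horizontal axis; one row for each list), with called members marked and the median of each list drawn. Cholesterol synthesis lies furthest to the left, with a median of −2.13, and stellate cell markers furthest to the right, with a median of 1.79.

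Genes of scar matrix and of the cells that make it were higher at week 4. Of 26 collagen and matrix genes 15 rose, against 5.43% of all genes tested, and none fell (median 1.61), and of 15 stellate cell and myofibroblast markers 12 rose and none fell (median 1.79). Col3a1, a fibrillar collagen, was at 23.6, 14.8 and 10.5 CPM at week 4, against 2.54, 3.80, 3.43, 3.10 and 1.75 CPM on normal diet (2.45 ± 0.58, adjusted p = 0.0164). Tgfbi, a matrix protein induced by TGF-beta, was at 32.7, 15.6 and 15.5 CPM at week 4, against 3.99, 7.94, 6.08, 6.06 and 2.63 CPM on normal diet. Timp3, an inhibitor of matrix proteases, was at 4.25, 2.37 and 2.38 CPM at week 4, against 0.363, 0.345, 0.935, 0.943 and 0.877 CPM on normal diet (2.07 ± 0.37, adjusted p = 0.00163). In each of these 3 genes week 4 library 1 was the highest of all 8 libraries. The proteoglycan Bgn, fibrillin (Fbn1), the protease inhibitor Timp2 and the collagen Col14a1 rose by 1.66, 2.52, 1.48 and 1.86 on the log2 scale. Fbn1 was low in both groups, with means of 1.77 CPM at week 4 and 0.264 CPM on normal diet. Col1a1, the main scar collagen, was at 4.90, 3.65 and 4.05 CPM at week 4, against 1.09, 2.24, 0, 0.809 and 0.658 CPM on normal diet, with no overlap and an adjusted p of 0.0869.

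Several stellate cell markers were likewise highest in week 4 library 1. Lrat, which esterifies retinol for storage and defines quiescent stellate cells, was at 28.0, 13.6 and 15.7 CPM at week 4, against 2.36, 6.56, 7.17, 6.20 and 4.83 CPM on normal diet (1.80 ± 0.37, adjusted p = 0.00658). Ecm1, a matrix glycoprotein, was at 144, 58.4 and 65.9 CPM at week 4, against 22.9, 26.2, 27.7, 35.2 and 16.2 CPM on normal diet, and Colec11, a collectin, at 52.9, 18.3 and 18.9 CPM at week 4, against 7.99, 10.4, 7.64, 11.7 and 2.85 CPM on normal diet. The transcription factor gene Hand2, the receptor gene Pdgfra and the pericyte regulator Rgs5 rose 4.37-fold, 3.86-fold and 2.74-fold. Hand2 and Pdgfra were low, with means of 4.64 and 2.15 CPM at week 4 and 0.982 and 0.533 CPM on normal diet. Acta2, smooth muscle actin and the usual mark of activated myofibroblasts, was near 0 in both groups, at 0.109, 0.296 and 0.119 CPM at week 4, against 0, 0.173, 0.468, 0.135 and 0 CPM on normal diet.

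Markers of other cells moved beside these genes. Sinusoidal endothelial markers rose in 12 of 20 cases, against 5.43% of all genes tested, and fell in none (median 1.23). Only 1 of the 20 had no overlap between the groups, against 13.5% of all genes tested. It was the scavenger receptor Stab2, with 49.7, 40.5 and 25.6 CPM at week 4, against 8.35, 10.9, 22.3, 24.3 and 8.99 CPM on normal diet. The endothelial ligand Bmp2, the Fc receptor Fcgr2b, and the receptor kinases Flt4 and Tek rose 2.81-fold, 3.11-fold, 2.34-fold and 2.13-fold, and for each of these 4 genes week 4 library 3 overlapped with normal-diet libraries. Of 15 Kupffer cell markers (median 1.22), the lectin Clec4f and the iron exporter Slc40a1 rose. Of 18 monocyte, macrophage and dendritic cell markers (median 1.12), lysozyme (Lyz2), the chemokine receptor Ccr2 and osteopontin (Spp1) rose. Lyz2, Ccr2 and Spp1 were called in 9, 10 and 6 of the 21 other fits. Clec4f was at 128, 95.3 and 64.3 CPM at week 4, against 15.8, 43.8, 45.1, 63.6 and 12.7 CPM on normal diet, so week 4 library 3 lay just above normal-diet library 4. CPM was also summed over the tested members of each list. The Kupffer sum ranged from 705 to 1439 at week 4 and from 200 to 767 on normal diet. The endothelial sum ranged from 705 to 1579 at week 4 and from 254 to 982 on normal diet. The stellate sum ranged from 281 to 638 at week 4 and from 74.8 to 156 on normal diet. The monocyte sum ranged from 235 to 459 at week 4 and from 68.7 to 253 on normal diet. Only the stellate sums did not overlap between the groups, and no marker of these 4 lists was at 0 throughout a group.

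With the marker score as a term no collagen or matrix gene was called and the median of that list was 0.22. No stellate or endothelial marker was called either, with medians of 0.42 and 0.03, and the Kupffer and monocyte medians were −0.39 and −0.51. The score is built from the stellate, endothelial and Kupffer lists themselves, so their own values in that fit describe the fit only. Without normal-diet libraries 1 and 5 and week 4 library 1, the collagen and matrix median was 1.04 and no member was called. The part of the other cell types in the matrix result was not tested.

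**Figure D5:**
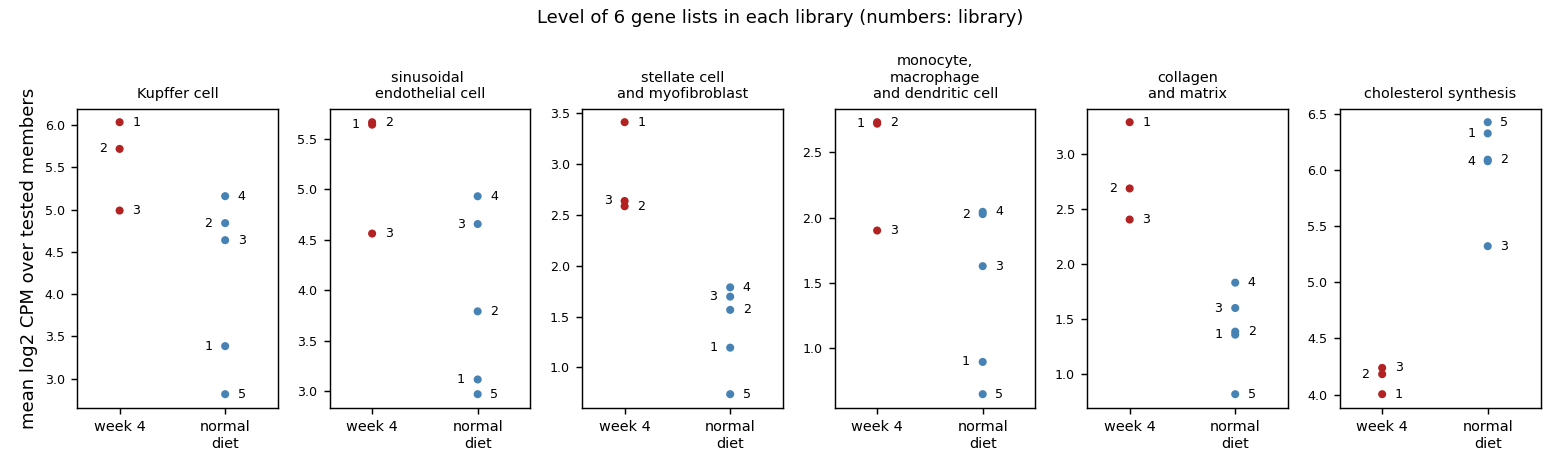
Mean log2 CPM over each of 6 gene lists in each library (numbers give the library), week 4 left of normal diet. The collagen and matrix list is at 3.29, 2.69 and 2.40 at week 4 and at 0.81 to 1.83 on normal diet. Cholesterol synthesis is at 4.00 to 4.24 at week 4 and 5.32 to 6.43 on normal diet.

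Injury and inflammation genes were partly higher. Of 37 genes of hepatocyte injury, annexins and YAP targets 12 rose and 1 fell (median 0.73), where 5.43% of all genes tested rose and 2.86% fell, and with the marker score as a term none was called and the median was 0.02. Anxa2, a membrane-binding annexin, was at 17.2, 17.2 and 8.70 CPM at week 4, against 4.36, 6.04, 4.05, 6.33 and 3.29 CPM on normal diet (1.56 ± 0.26, adjusted p = 0.000661). Cd63, a tetraspanin of late endosomes, was at 9.92, 10.6 and 8.70 CPM at week 4, against 2.54, 2.07, 3.27, 2.02 and 2.63 CPM on normal diet (1.96 ± 0.37, adjusted p = 0.00294). The calcium-binding S100a6 and S100a11 rose 4.40-fold and 2.30-fold and tubulin Tuba1a rose 2.65-fold, Tuba1a with an overlap. S100a6 was low in both groups, with means of 2.16 CPM at week 4 and 0.504 CPM on normal diet. Sox9, a transcription factor of bile ducts and of hepatocytes near them, was the gene that fell, to 22.3, 15.6 and 24.7 CPM at week 4, against 54.1, 40.9, 41.2, 36.7 and 33.1 CPM on normal diet (−0.98 ± 0.29, adjusted p = 0.0403). Among 18 chemokines and NF-kB targets (median 0.45), 4 rose. They were the monocyte attractant Ccl2, the NF-kB inhibitor Tnfaip3, the adhesion molecule Vcam1 and the chemokine Cxcl16. Ccl2 and Cxcl16 overlapped between the groups. Ccl2 and Tnfaip3 were low, with means of 3.19 and 1.42 CPM at week 4 and 0.674 and 0.364 CPM on normal diet. Ccl2, Vcam1 and Cxcl16 were called in 9, 9 and 10 of the 21 other fits, and Tnfaip3 in 9 of 19. The chemokine Ccl9 fell 2.06-fold, with 33.7, 31.5 and 33.2 CPM at week 4, against 77.7, 63.2, 45.8, 74.8 and 76.1 CPM on normal diet. In the fit that held the marker score none of the 4 rises was called, whereas the fall of Ccl9 was, at −1.02.

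Smaller immune and stress lists held 0 to 3 calls each, where 8.28% of all genes tested were called. The interferon-induced Gbp2 rose 2.27-fold among 25 interferon response genes (median 0.05), Gpnmb, a lysosomal glycoprotein of lipid-laden macrophages, rose among 23 lysosome genes (median 0.10), and none of 9 genes of MHC class II and antigen presentation was called (median 0.81). Gpnmb was at 1.63, 4.83 and 1.91 CPM at week 4, against 0, 0, 0.624, 0.270 and 0 CPM on normal diet. The factors Klf2, Klf4 and Klf6 rose 3.06-fold, 3.56-fold and 1.98-fold among 16 immediate early genes (median 0.21). Of 4 cholangiocyte markers tested (median 0.30) Bicc1 and Spp1 rose and Sox9 fell. The neutrophil marker Csf3r rose among 3 tested (median 0.99), and no marker was called among 3 of lymphocytes (−0.69) and 5 of erythroid cells (0.35). Summed CPM over the 3 tested of 9 neutrophil markers was 2.74 to 3.49 at week 4 and 0.182 to 2.56 on normal diet. Over the 4 tested of 10 cholangiocyte markers it was 28.1 to 44.3 at week 4 and 43.9 to 68.8 on normal diet. Sox9, also a gene of hepatocytes near bile ducts, averaged 20.9 CPM of that sum at week 4 and 41.2 CPM on normal diet. The defining neutrophil gene Ly6g and the T cell gene Trac were at 0 in both groups. Further genes among the largest rises over 10 CPM were Igfbp7, a secreted protein of vessels and stroma, which rose 3.51-fold, and Wfdc2, a secreted protease inhibitor, which rose 3.50-fold to 17.9, 26.4 and 24.8 CPM at week 4, against 3.99, 8.11, 11.8, 4.58 and 3.95 CPM on normal diet. In the fit that held the marker score, Igfbp7 had a log2 fold change of 0.29 and Wfdc2 one of 1.29.

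Of the 983 called genes, 41 were called in the same direction in each of the 21 other fits, which changed the scaling, the filter, the tool, the libraries or the terms. They comprise 7 genes that rose and 34 that fell, and 12 of the 34 are cholesterol synthesis enzymes. The 7 rises are Cfd, Apoa4, Cd36, Fabp2, Abcg8, Adam11 and Slc17a8. Several of these genes lie outside the lists and are named because of this count, after their values were seen. Adam11, a non-catalytic member of the ADAM family, was at 10.9, 12.3 and 20.1 CPM at week 4, against 2.00, 1.21, 4.21, 2.29 and 4.61 CPM on normal diet, and Slc17a8, a vesicular glutamate transporter, was at 9.81, 16.9 and 17.0 CPM at week 4, against 6.53, 5.01, 6.55, 6.06 and 5.70 CPM on normal diet. Neither overlapped between the groups. The falls include Fabp5, Csad, Ces2a, Serpina1e, Apom, Abhd5, Aldoc, Ccl9 and Cdh1. Among the others are Slc13a2, a sodium-coupled citrate and succinate carrier, at 1.20, 1.68 and 2.02 CPM at week 4, against 9.26, 15.9, 11.5, 13.6 and 14.3 CPM on normal diet, and Slco2a1, the prostaglandin transporter, at 44.5, 47.9 and 40.7 CPM at week 4, against 110.0, 102, 76.9, 133 and 95.6 CPM on normal diet. The zinc importer Slc39a4, the vitamin D 25-hydroxylase Cyp2r1 and Acmsd, which turns tryptophan breakdown away from NAD synthesis, fell 2.23-fold, 2.13-fold and 2.17-fold.

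The 3 week 4 libraries also differed among themselves. Among genes averaging 10 CPM or more at week 4, the 8 with the widest range of log2 CPM were Ctrb1, Egfros, Foxq1, Fosb, Cish, Angptl8, Bcl6 and Phlda1, given here as a description with no test. Fosb, an immediate early gene, was at 42.9, 18.0 and 4.17 CPM in week 4 libraries 1 to 3, and Angptl8, an insulin-induced inhibitor of lipoprotein lipase, at 77.5, 9.36 and 32.6 CPM. Cish, which is induced by growth hormone through STAT5, was at 2.62, 24.8 and 23.6 CPM, while Bcl6, which STAT5 represses in mouse liver, was at 51.0, 13.8 and 8.70 CPM. The libraries with high Cish had low Bcl6. On normal diet the 5 libraries ranged as widely, from 1.55 to 25.7 CPM for Cish and from 6.14 to 80.6 CPM for Bcl6. Ctrb1, a pancreatic chymotrypsinogen, was at 3.05, 26.4 and 0.596 CPM at week 4 and at 0.182 to 0.779 CPM on normal diet.

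Against the weeks next to it, week 4 gave no call. Comparing week 4 with week 3 (3 and 4 libraries), 0 genes were called by edgeR (0%), with 2103 at an unadjusted p under 0.05 and a smallest adjusted p of 0.0972. DESeq2 called 99 and limma voom 0. Comparing week 5 with week 4 (3 libraries each), 0 were called by edgeR (0%), with 2095 at an unadjusted p under 0.05 and a smallest adjusted p of 0.105. DESeq2 called 110 there and limma voom 387. Cd36 had the smallest p between weeks 4 and 3, with 52.4 CPM at week 4 and 22.3 CPM at week 3. These comparisons share the week 4 libraries with the one above.

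The genes with the largest changes at week 4 differed in when they moved, given here as group means with no test of their order. They were picked by their change at week 4, which favours an extreme mean in that week. Sqle was already at 3.51 CPM after 1 week and stayed between 3.36 and 5.55 CPM in weeks 2 to 6, against 63.3 CPM on normal diet. Cd36 averaged 15.4, 20.4, 22.3, 52.4, 70.8 and 67.7 CPM over weeks 1 to 6, against 12.8 CPM on normal diet, and its largest step between neighbouring means was between weeks 3 and 4. Cfd averaged 3.61, 18.8, 29.7, 49.3, 14.1 and 35.0 CPM over weeks 1 to 6, against 0.743 CPM on normal diet, with its highest mean at week 4. Csad averaged 311, 269, 200, 70.5, 97.6 and 138 CPM, against 363 CPM on normal diet, and Fabp5 averaged 46.9, 21.8, 29.8, 8.95, 15.5 and 13.7 CPM, against 89.2 CPM on normal diet. Both had their lowest mean at week 4. Serpina1e averaged 14194, 11946, 9884, 4133, 3399 and 5132 CPM over weeks 1 to 6, against 14102 CPM on normal diet, so the week 1 mean lay close to that on normal diet.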

How the data were processed

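Per the labels' protocols, the library kit was QuantSeq 3' FWD. The tools named are FastQC, cutadapt and STAR 2.7.1a, and the build is GRCm39, per the submitters' processing notes. The table deposited by the authors holds raw counts per gene symbol for 25 libraries, made with a counting tool and an annotation not given in the sources used here. Its values were checked to be whole numbers of at least 0, with unequal totals. Close paralogs can share reads, and counting of 3' ends makes levels largely independent of transcript length.

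Of 37085 symbols, 11869 passed the edgeR filter on low counts by group (filterByExpr), holding 99.9% of counts. Tests used edgeR 4.0.16 (R 4.3.3), TMM scaling and its quasi-likelihood F statistic with robust dispersion. All 25 libraries entered a single model of 7 groups, with 18 residual degrees of freedom, and Benjamini-Hochberg adjustment ran over all tested genes of a comparison. A standard error is the absolute log2 fold change divided by the root of F. Log2 levels use a prior count of 2. The test was checked on simulated data.

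The 8 libraries were taken by their labels. The genes and lists were chosen with earlier results of these data known. Genes were named if they were among the 14 largest called rises or falls with no overlap and a mean of at least 10 CPM, if they had 1 of the 5 smallest p-values of a list, or if a step of a pathway needed them. Members beyond those, and genes named for being called in every fit, were chosen after their values were seen. Symbols of unnamed gene models were passed over. Some members of the lists are counted but not reported here by name. Alternatives changed the scaling, filter, tool (DESeq2 1.42.0, limma 3.58.1), libraries and terms. Within week 4 and within normal diet no library copied another: chi-squared over degrees of freedom was at least 13.3 for each pair. Promoter sequences are from RefSeq (GRCm38.p6), and no coordinates of the counts were used.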

Additional observations from a re-analysis of the deposited data

Results flagged for a closer look

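Dixon's test, set here for groups of 4 to 10 libraries, looks for a single library far from the rest. Chance alone gives such a library in about 1 in 20 groups. It was run on the 5 normal-diet libraries for 141 of the genes named in the text. The libraries' total counts, composition factors, mitochondrial shares and marker scores were tested too, and 11 of 145 groups held such a library. In 9 of the 11 the library was normal-diet library 3. It was the lowest of its group for Fdft1 (16.8 CPM, next 38.7) and Msmo1 (73.0 CPM, next 199), and the highest for Abcg5 (86.4 CPM, next 31.8), Srebf1 (267 CPM, next 92.8), Fasn (1334 CPM, next 345), Scd1 (13272 CPM, next 5329), Acacb (80.9 CPM, next 58.3), Mfsd2a (114 CPM, next 30.3) and Apoc2 (534 CPM, next 383). Relative to its own group this library was low in sterol synthesis and high in lipogenic and LXR-regulated genes. The remaining cases were normal-diet library 4, which was the highest of its group for Ccl2 (1.89 CPM, next 0.545) and for Fbn1 (0.809 CPM, next 0.182). Groups of 3 libraries, such as week 4, were not examined in this way.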

How the results depend on the processing

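Relative to the 983 calls of week 4 against normal diet, the count was 243 with only the libraries of both groups in the fit, 53 in the fit that held the marker score, 198 without normal-diet libraries 1 and 5, and 78 when week 4 library 1 was left out as well, the last chosen after seeing the data. It was 155 to 1360 when one library was left out. The labels do not say that replicate numbers pair the libraries. Same-numbered week 4 and normal-diet libraries correlated at −0.26, 0.05 and −0.24 in their deviations from group means, and differently numbered ones at −0.38 to 0.43. These values cannot exclude a pairing. With the replicate number as a block the count was 335. Composition factors of DESeq2 (997), no filter (670), a stricter filter (859), mitochondrially encoded genes left out (1004), DESeq2 (1328), limma voom (960), totals alone (1183) and leaving out week 4 library 3 with normal-diet library 5 (882, chosen after seeing the data) moved it by less than 1.5 times. Week 4 against week 3 had 99 calls by DESeq2, 8 with only both groups and 0 to 84 with one library left out, and 0 otherwise. Week 5 against week 4 had 14 calls with totals alone, 110 by DESeq2, 387 by limma voom, 94 with only both groups and 0 to 1 with one library left out, and 0 otherwise. The mitochondrial share differed by −1.68 to 1.26 percentage points with one library left out, was negative without normal-diet library 1 (−0.18), normal-diet library 2 (−0.77) or week 4 library 3 (−1.68), and no exact p passed 0.05. With the marker score as a term the log2 fold change turned sign for Clec4f (−0.091), Cxcl16 (−0.18), Lyz2 (−0.16), Vcam1 (−0.035) and Scd1 (−0.25). Sign also turned for Scd1 without normal-diet libraries 1 and 5 (−0.11) and without week 4 library 3 and normal-diet library 5 (−0.013), for Alb in that last fit (0.023) and with totals alone (0.11), for Plin2 with totals alone (0.032), and for Fasn without normal-diet library 3 (0.22, the highest of −0.72 to 0.22 over left-out libraries). Over 141 of the named genes and all fits, 2279 values kept direction and side of the threshold, 652 lost the call and 8 gained it. The causes were not tested. With totals alone the medians of apolipoproteins (0.08), hepatocyte transcription factors (0.14), the integrated stress response (0.09), oxidative phosphorylation (0.04) and steroid hydroxylases (0.0043) were positive.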

Other observations

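Among the 34 genes that fell in each of the 21 other fits, several not described above act outside lipid metabolism, and they were chosen after their values were seen. Itih5, a carrier of hyaluronan in the matrix, was at 13.1, 15.3 and 18.9 CPM at week 4, against 45.9, 43.3, 51.9, 43.4 and 59.7 CPM on normal diet (−1.63 ± 0.18, adjusted p = 5.7e-06 by edgeR). Nudt7, a peroxisomal hydrolase of coenzyme A, was at 464, 341 and 454 CPM at week 4, against 917, 783, 888, 783 and 623 CPM on normal diet, and fell 1.90-fold. Gm2a, the activator protein of ganglioside breakdown in lysosomes, was at 113, 105 and 113 CPM at week 4, against 169.5, 192, 212, 172 and 192 CPM on normal diet, and fell 1.70-fold. None of these 3 genes overlapped between the groups.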
